A study of Sus scrofa with 6 samples.

Results

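The family of microRNAs (miRNAs) formed by miR-130, miR-301 and miR-454 was followed in cultured immature Sertoli cells of the pig. Its members were the entries of the deposited table named miR-130a, miR-130b, miR-301, miR-301a, miR-301b or miR-454, with or without an arm. This gave 5 entries of 1645 in all, counting 358 known pig miRNAs and 1287 predicted ones. They were miR-130a, miR-130b-3p, miR-130b-5p, miR-301 and miR-454, and the names miR-301a and miR-301b matched none. The cells came from pig testis at 80 to 90 days of gestation and were cultured for 6 h in medium with 10% fetal bovine serum before treatment. The control group (3 libraries) had no treatment, and the AA2P group (3 libraries) was given AA2P, the hydrated sesquimagnesium salt of L-ascorbic acid 2-phosphate and a stable derivative of vitamin C, at 250 µM. How long the cells were treated, and whether controls had a vehicle, is not given in the sources used here. No label ties libraries to separate cultures or animals. The p-values therefore reflect the spread among these 6 libraries, and that spread may be technical.

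miRNAs of this family share a seed, the stretch near the 5′ end that pairs with target transcripts, and can therefore repress many of the same messages. Targets described in other mammalian cells include the TGF-β receptor TGFBR2 and PPARG, a regulator of lipid metabolism. TGF-β signalling acts in Sertoli cells, the somatic cells that support germ cells in the testis. In human and mouse, miR-301a and miR-454 lie together in an intron of SKA2, miR-130b lies beside miR-301b, and miR-130a lies apart. In the RefSeq gene table of the pig (assembly Sscrofa11.1), MIR130A was placed next to YPEL4 and outside any protein-coding gene, and MIR130B inside LOC100155534, between PPIL2 and SDF2L1.

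The 6 libraries held 25.8 to 36.0 Mreads (counted reads, with M for mega), as read from the smallest step between their values, so 1 TPM (a read count scaled to a common library total) stood for 25.8 to 36.0 reads. The limit that a count of 0 allows (3 reads) lay at 0.0834 to 0.116 TPM. Of all entries, 433 had at least 1 TPM in at least 3 libraries and were tested by limma on log2(TPM + 1), with p-values adjusted by Benjamini-Hochberg over all 433. All 5 members passed this filter. Of the 433 entries, 24.7% were called at an adjusted p under 0.05, with 19.9% higher and 4.85% lower with AA2P. Across the tested entries the log2 fold change had a median of 0.25, and other scalings shifted this median by -0.28 to -0.18. A member's change is therefore given beside this shift.

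The family was a minor part of the miRNA pool. Its 4 seed-bearing products were miR-454, miR-130a, miR-130b-3p and miR-301, where entries without an arm were taken to carry the seed. With miR-130b-5p, which has another seed, the 5 entries held 402 to 441 TPM in controls and 547 to 631 TPM with AA2P. Without it, the 4 products held 158, 176 and 183 TPM in the control libraries and 292, 276 and 258 TPM in the AA2P libraries. The sum was higher in each AA2P library than in any control library, 172 ± 13.2 TPM against 275 ± 16.9 TPM (SD, n = 3 per group), a ratio of 1.60. It made up 0.0172% of all counted reads in controls and 0.0275% with AA2P. This is a description with no test, and the gain of 103 TPM shrank to between 54.5 and 73.8 TPM under other scalings. These are bulk libraries, in which more cells of a type and more RNA per cell cannot be told apart.

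Among the members, miR-454 rose most clearly. Its level was 104, 125 and 123 TPM in control replicates 1, 2 and 3 and 209, 210.5 and 191 TPM in AA2P replicates 1, 2 and 3. All 3 AA2P libraries stood well above all 3 controls, and the groups did not overlap. The mean went from 117 ± 11.5 to 203 ± 11.1 TPM (SD, n = 3 per group), 1.74-fold higher, with a log2 fold change of 0.80 (SE 0.10, 95% interval 0.55 to 1.04; limma, adjusted p = 0.00427). This p was the 18th smallest of the 433 entries, and the log2 fold change was the 35th largest of the 86 entries called higher. Less the median of all tested entries, its log2 fold change was 0.55. The call held in all 19 alternatives in which it was computed, and under the 5 other scalings the log2 fold change was 0.48 to 0.64 (limma, adjusted p = 0.0113 to 0.0217). miR-454 rested on 2681 to 7573 reads per library, so counting error was small beside the difference.

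**Figure D1:**
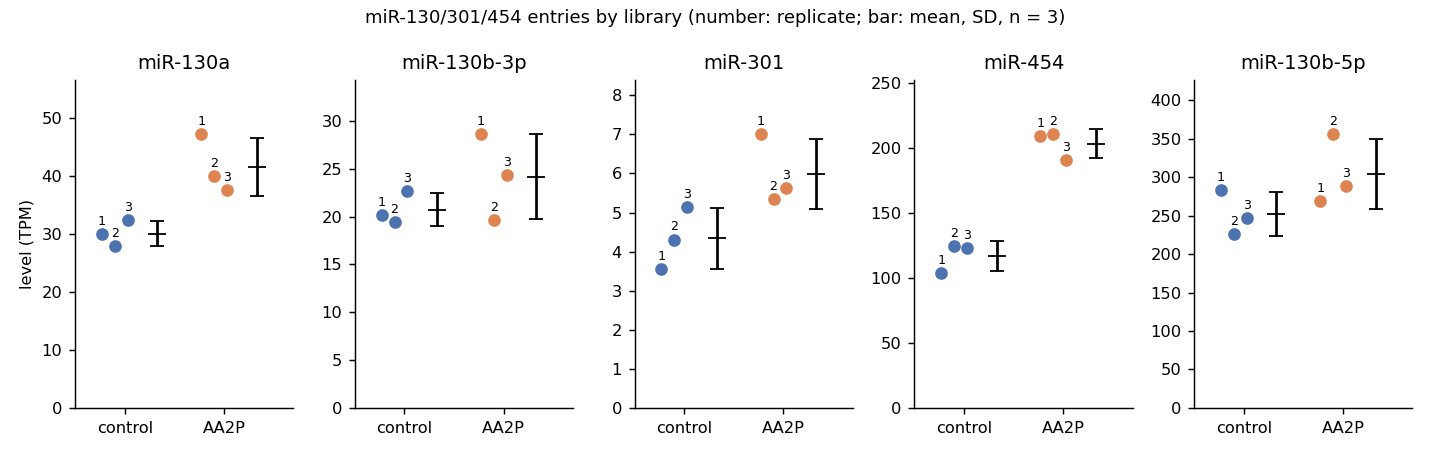
Level of each family entry in TPM (y axis, from 0, own scale per panel) in the control and AA2P libraries; points are single libraries marked with their replicate number, and bars beside them are the mean and SD of 3 libraries. In the deposited TPM, miR-454, miR-130a and miR-301 show no overlap between groups, while both arms of miR-130b do.

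miR-130a, best known from endothelial and blood-forming cells, was lower than miR-454 in every library. It stood at 29.9, 27.9 and 32.3 TPM in the controls and at 47.2, 40.1 and 37.6 TPM with AA2P. The groups did not overlap, and AA2P replicate 1 was the highest library. The mean went from 30.1 ± 2.20 to 41.6 ± 4.98 TPM (SD, n = 3 per group), 1.38-fold higher, with a log2 fold change of 0.45 (SE 0.118, 95% interval 0.16 to 0.74; limma, adjusted p = 0.0375). This call was lost in 12 of 19 alternatives. Under the 5 other scalings the log2 fold change was 0.15 to 0.26 (limma, adjusted p = 0.129 to 0.418). It was also lost when any 1 of control replicates 1, 2 and 3 or of AA2P replicates 1 and 2 was left out (limma, adjusted p = 0.0973, 0.103, 0.0740, 0.0778 and 0.0619), while without AA2P replicate 3 it held (limma, adjusted p = 0.0480). Less the median of all tested entries, the log2 fold change was 0.20. Under trimmed-mean scaling the groups overlapped, with 36.5 TPM in control replicate 3 and 35.1 TPM in AA2P replicate 2.

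Markers of blood and endothelium were looked at beside miR-130a. All 9 listed markers were in the table. The white blood cell miRNA miR-142-3p stood at 0.43, 0.50 and 0.59 TPM in the controls and at 2.68, 1.47 and 1.79 TPM with AA2P. It passed the filter on low values only through the AA2P group, so its test is not read here. Their summed level was 103 to 117 TPM in controls and 92.5 to 126 TPM with AA2P. No listed marker was at 0 in all 6 libraries, but miR-144 and miR-150 did not exceed 0.06 and 0.11 TPM. The endothelial miR-126-3p stood at 101 and 96.4 TPM (log2 fold change -0.08; limma, adjusted p = 0.615). Another listed marker, miR-486, stood at 3.76 and 2.34 TPM, with overlapping groups (log2 fold change -0.53; limma, adjusted p = 0.118). Both were called lower under some of the 5 other scalings but not all. There miR-126-3p had -0.39 to -0.27 (limma, adjusted p = 0.0224 to 0.0840). The values of miR-486 there were -0.76 to -0.67 (limma, adjusted p = 0.0323 to 0.0629). The myeloid miR-223 reached 5.40 TPM in AA2P replicate 1, the library in which miR-130a was highest, and did not exceed 0.06 TPM in any other library. Without that library the log2 fold change of miR-130a was 0.36. The part of such cells in the level of miR-130a was not tested.

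miR-301, listed without a letter or an arm, was the scarcest member. Its level was 3.56, 4.31 and 5.14 TPM in the controls and 7.0, 5.34 and 5.63 TPM with AA2P. The groups did not overlap, but control replicate 3 and AA2P replicate 2 lay close together. These values rested on 92 to 192 reads, and the exact 95% Poisson intervals of those 2 libraries, which cover counting error only, ran from 4.37 to 6.02 TPM and from 4.61 to 6.15 TPM. The means were 4.34 ± 0.790 and 5.99 ± 0.887 TPM (SD, n = 3 per group). The log2 fold change of 0.39 (SE 0.174, 95% interval -0.03 to 0.82) did not pass (limma, adjusted p = 0.147), nor did it in any of the 18 alternatives in which miR-301 was tested. With the median of all tested entries taken off it was 0.14, and under the 5 other scalings it was 0.13 to 0.23. Under trimmed-mean scaling the groups overlapped, with 5.81 TPM in control replicate 3 and 4.68 TPM in AA2P replicate 2. The pseudocount of 1 understates a change at so low a level.

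miR-130b was measured on both arms. The 3p arm, which carries the family seed, held 20.1, 19.4 and 22.7 TPM in controls and 28.6, 19.7 and 24.3 TPM with AA2P. The groups overlapped, since AA2P replicate 2 fell among the controls. Its log2 fold change was 0.20 (95% interval -0.18 to 0.58; limma, adjusted p = 0.373), or -0.05 less the median of all tested entries. The sign of the log2 fold change turned under 4 of the 5 other scalings, with values down to -0.11.

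The 5p arm of miR-130b, which has another seed, was the most abundant entry of the family. It held 283, 226 and 247 TPM in the controls and 269, 356 and 288 TPM with AA2P, and the groups overlapped. Its log2 fold change was 0.27 (95% interval -0.07 to 0.60; limma, adjusted p = 0.198), close to the median of all tested entries. The sign turned under 3 of the 5 other scalings, with values down to -0.04. Over the family, 2 of 5 entries were called higher and 0 lower, beside 19.9% and 4.85% of all tested entries, and the median log2 fold change of the 5 was 0.39 beside 0.25. The groups did not overlap, with AA2P higher, for 3 of 5 entries, beside 40.4% of all tested entries, so a gap between the groups was common in this table. Under trimmed-mean scaling miR-454 alone kept this gap among the 5.

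**Figure D2:**
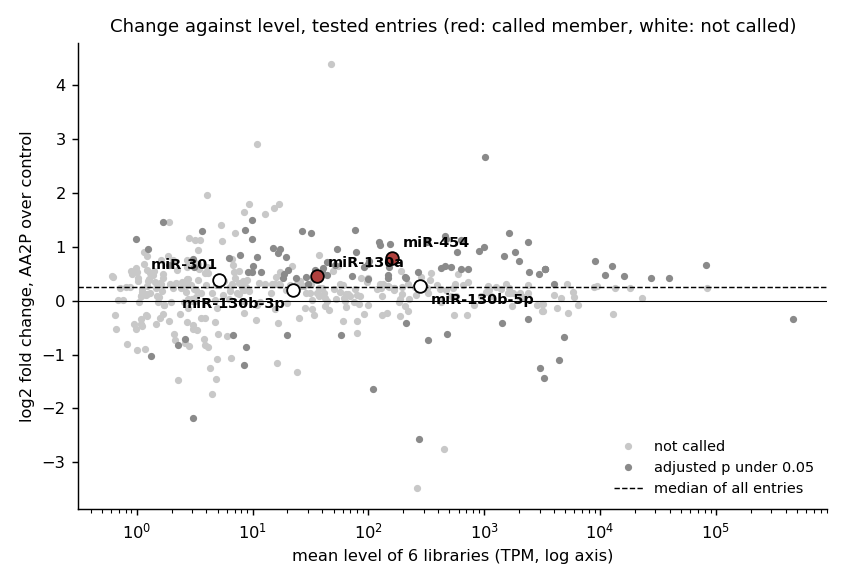
Log2 fold change of AA2P over control (y axis) against the mean level of 6 libraries in TPM (x axis, log axis) for the 433 tested entries, with the 5 family entries in large symbols, red where called. miR-454 lies above the dashed median of 0.25, miR-130a and miR-301 somewhat above it, and both arms of miR-130b close to it.

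The use of the 2 arms of miR-130b was compared within libraries, where scaling cancels in a plain ratio. The 5p arm outnumbered the 3p arm 14.1-fold, 11.6-fold and 10.9-fold in the controls and 9.42-fold, 18.1-fold and 11.9-fold in the AA2P libraries. The AA2P libraries thus held both the lowest and the highest ratio, and the control values lay between them. The log2 ratio, with 1 TPM added to each arm, was 3.54 ± 0.187 in the control group and 3.61 ± 0.466 in the treated group (SD, n = 3 per group), a difference of 0.07 (95% interval -0.38 to 0.51; limma, adjusted p = 0.895). Its sign turned without control replicate 3 (-0.01) or AA2P replicate 2 (-0.19). Of the 39 hairpins with a mean of at least 10 TPM on each arm, 0 were called (0.00%), 4 had an unadjusted p under 0.05, and leaving out control replicate 2 gave 3 calls, miR-130b not among them. In 22 of the 39 hairpins the 5p arm was the more abundant, and miR-130b ranked 12th by its excess.

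The order of the family's entries by level was the same in 6 of 6 libraries. From high to low it ran miR-130b-5p, miR-454, miR-130a, miR-130b-3p and miR-301. Within a group the ranges of neighbours in this order did not overlap. miRNA products have nearly the same length and the values showed no length term, so levels were compared directly.

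The make-up of the seed-bearing sum shifted toward miR-454. miR-454 made up 66.0, 70.7 and 67.1% of it in the controls and 71.7, 76.4 and 73.8% with AA2P. Each AA2P library was above each control, 67.9% ± 2.48 against 74.0% ± 2.37 (SD, n = 3 per group). The share of miR-130b-3p went from 12.1% ± 0.940 to 8.78% ± 1.44, again with no overlap. miR-130a went from 17.5% ± 1.58 to 15.1% ± 0.929 and miR-301 from 2.51% ± 0.280 to 2.17% ± 0.230, both with overlapping groups. Shares of 1 sum are not independent, so these are descriptions with no test.

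**Figure D3:**
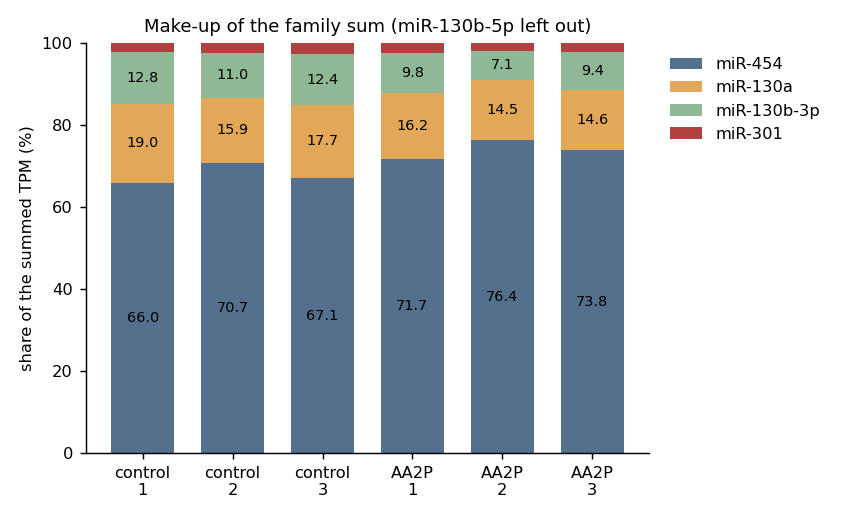
Share in % (y axis) of each seed-bearing member in the summed TPM of these members, 1 stacked bar per library. Numbers in the bars are the shares. miR-454 takes 66.0 to 70.7% of each control bar and 71.7 to 76.4% of each AA2P bar.

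Ratios between members asked whether they changed by different amounts. A plain ratio within a library is free of scaling, but the tested log2 ratios had 1 TPM added and were not wholly so. Over 6 pairs of main-arm members the two-sided exact permutation test could not go below p = 0.1 with 3 against 3 libraries, so none could pass. The ratio of miR-454 to miR-130b-3p was 5.16, 6.43 and 5.41 in controls and 7.32, 10.7 and 7.84 with AA2P, with no overlap. On the log2 scale with 1 TPM added it differed by 0.60 (exact permutation p = 0.1; adjusted over the 6 pairs, 0.12).

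miR-454 and miR-130a differed less from each other. Their ratio was 3.47, 4.46 and 3.80 in controls and 4.43, 5.25 and 5.07 with AA2P, and control replicate 2 and AA2P replicate 1 overlapped slightly. With 1 TPM added that overlap closed, and the log2 difference was 0.34 (exact permutation p = 0.1; with 0.1 TPM added, 0.2). In human and mouse, miR-454 and miR-301a share a host gene. The ratio of miR-454 to the entry miR-301 was 29.2, 28.9 and 23.9 in controls and 29.9, 39.4 and 33.9 with AA2P. The groups did not overlap. With 1 TPM added to each member, the log2 difference was 0.40 (exact permutation p = 0.1). At the low level of miR-301, this addition damps its part in the ratio. With the same addition, the log2 ratio of miR-130a to miR-301 was 2.55 ± 0.184 and 2.61 ± 0.0786 (SD, n = 3 per group; exact permutation p = 0.6). That of miR-130a to miR-130b-3p differed by 0.25 and that of miR-130b-3p to miR-301 by -0.19, again with 1 TPM added. Each was without overlap and had the smallest p the exact permutation test allows. The 3 pairs with miR-301, whose mean was under 10 TPM, were added after the data were seen.

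**Figure D4:**
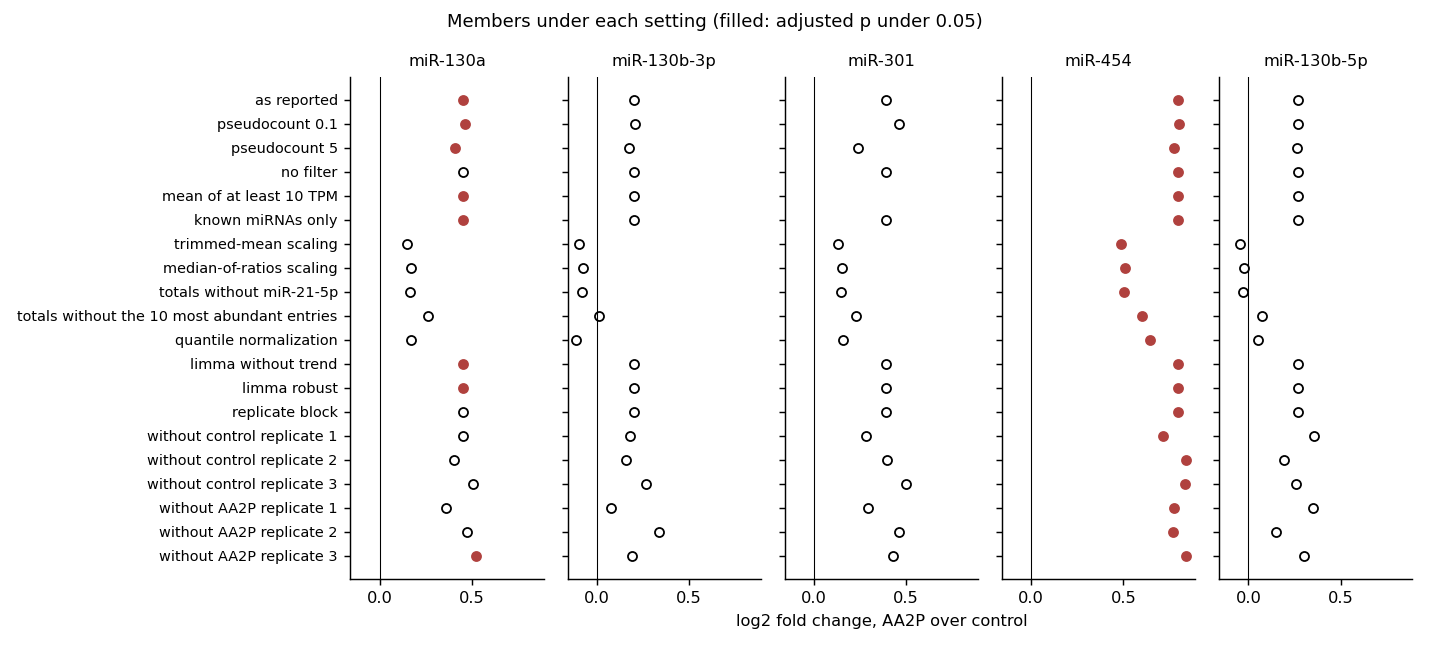
Log2 fold change of AA2P over control (x axis) of each family entry under every setting (y axis), filled where the limma adjusted p was under 0.05. miR-454 is filled in every row, miR-130a loses its call under each other scaling, and the miR-130b arms move to or across 0 there.

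The known miRNAs outside the family whose pattern over the 6 libraries was most like that of a member were found by the root mean square distance of log2(TPM + 1), each less its own mean, among 200 known miRNAs with a mean of at least 10 TPM. For miR-454 these were miR-450b-5p (distance 0.0787), miR-30a-5p (0.102) and miR-190a (0.113), where the median distance was 0.319. Their log2 fold changes were 0.84, 0.66 and 0.66. Neighbours were chosen by the same 6 values that hold the group difference. A change near that of the member was therefore built in, and the calls of neighbours are not read here. For miR-130a they were miR-148b-5p (0.0708), miR-503 (0.0714) and miR-34c (0.0719), with a median distance of 0.209. The log2 fold changes of these 3 were 0.42, 0.52 and 0.43, with the same limit.

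The arms of miR-130b had different nearest neighbours. For miR-130b-5p they were miR-128 (distance 0.0428), miR-7139-5p (0.0488) and let-7d-5p (0.0497). For miR-130b-3p they were miR-101 (0.0534), miR-7-3p (0.0642) and miR-455-3p (0.0869). The arms of this hairpin lay 0.292 apart, farther than the 0.171 between miR-130a and miR-130b-3p. It was also more than the median distance to the 200 compared miRNAs, 0.234 for the 5p arm and 0.235 for the 3p arm. These distances hold the scaling of the deposited TPM, which all entries share.

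The miR-148 family, with miR-152, and the miR-19 family have seeds close to that of the miR-130 family, shifted or partly shared. All 5 of their listed products were tested, and 1 rose and 1 fell, beside 19.9% and 4.85% of all tested entries, with a median log2 fold change of 0.27. miR-148b-3p, a repressor of DNMT1, went from 3591 to 4436 TPM (log2 fold change 0.31; limma, adjusted p = 0.0138), but its sign turned under trimmed-mean scaling and its call was lost in 7 further alternatives. miR-152, another repressor of DNMT1, went from 5931 to 3744 TPM (log2 fold change -0.67; limma, adjusted p = 0.0183). In the 5 alternatives that lost this call the log2 fold change was -0.67 to -0.54, and under 4 of the 5 other scalings it was -0.98 to -0.86 and called (limma, adjusted p = 0.00921 to 0.0154). miR-19a stood at 40.3 and 59.05 TPM, with no overlap between groups (log2 fold change 0.56; limma, adjusted p = 0.0746). It was called in 3 alternatives, while under the 5 other scalings its log2 fold change was 0.25 to 0.37 and not called. miR-19b stood at 181 and 213 TPM (0.26; limma, adjusted p = 0.335) and miR-148a-3p at 24.7 and 30.6 TPM (0.27; limma, adjusted p = 0.409).

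The relatives differed in level. The miR-148 and miR-152 products summed to 9547 ± 804 TPM in controls and 8211 ± 579 TPM with AA2P, and the groups overlapped. The miR-19 products summed to 221 ± 55.3 and 272 ± 19.1 TPM (SD, n = 3 per group). The seed-bearing products of the miR-130 family, at 172 and 275 TPM, were thus near the miR-19 products in level.

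Other miRNAs known to repress PPARG, a target of the family, were listed. Of these 3, 0 were called by limma (unadjusted p under 0.05 for 2), beside 24.7% of all tested entries. Their log2 fold changes were -0.23 for miR-27a, 0.27 for miR-27b-3p and 0.23 for miR-128. miR-27a was called lower under 4 of the 5 other scalings (-0.54 to -0.42; limma, adjusted p = 0.00484 to 0.0136) and without AA2P replicate 1 (-0.30; limma, adjusted p = 0.0332).

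**Figure D5:**
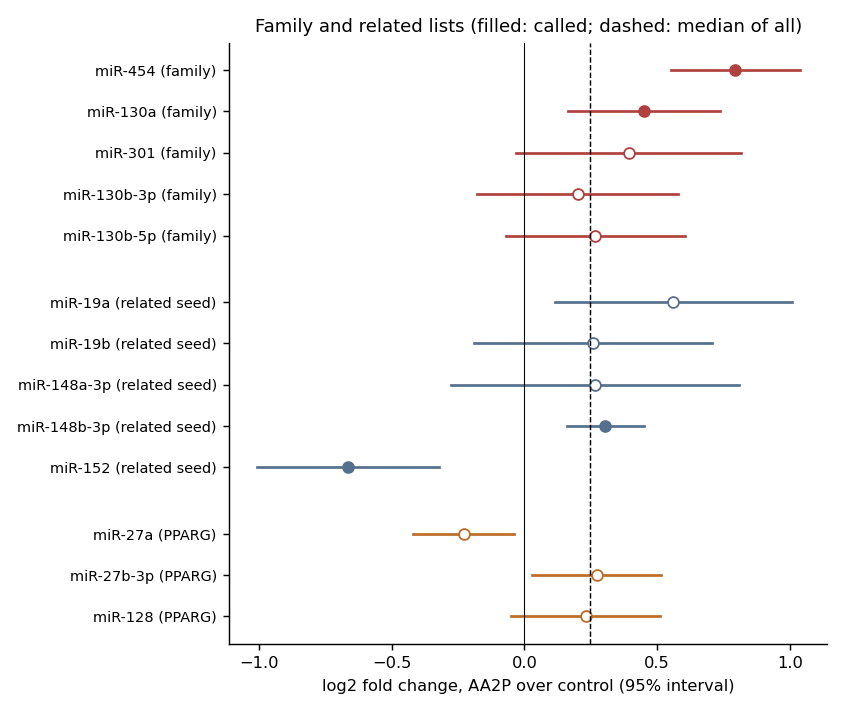
Log2 fold change of AA2P over control with its 95% limma interval (x axis) for the family, its seed relatives and the miRNAs known to repress PPARG (y axis), filled where called; the dashed line is the median of all tested entries, 0.25. miR-454 has the largest rise shown, and miR-152 and miR-27a lie below 0.

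Markers of the remaining cell types were described by their summed level. The 6 muscle and myoid miRNAs were at 168 to 227 TPM in controls and 219 to 307 TPM with AA2P, with 0 of 4 tested called by limma (24.7% of all tested entries were) and 1, miR-1, at an unadjusted p under 0.05. Of the 5 germ cell miRNAs only miR-34c matched an entry, at 169 to 183 and 213 to 283 TPM, and the other names were not analysed here. The log2 fold change of miR-34c, 0.43 and called, was 0.12 to 0.32 and not called under the 5 other scalings. The 3 matched epithelial miRNAs of 5 were at 1588 to 1675 and 2414 to 2959 TPM, a sum that is mostly miR-200b. Of these 3, miR-200b and miR-429 rose, beside 19.9% of all tested entries called higher. The third, miR-141, stood at 45.3 to 47.7 TPM in controls and at 20.5 to 63.5 TPM with AA2P (log2 fold change -0.18; limma, adjusted p = 0.735). The lists held no miRNA that defines Sertoli cells, so the labelled cell type was not checked. The levels of miR-200b, miR-429, miR-34c and miR-454 were higher in each AA2P library than in any control library, as were 40.4% of all tested entries. The part of other cells in the level of miR-454 was not tested.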

How the data were processed

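Small RNA libraries were run in 1 NovaSeq lane, per the labels' protocols. The values are TPM in a single table that the authors deposited, rounded to 2 decimals, and each column adds up to the same total over known and predicted entries. The submitters' processing notes name Bowtie without saying what it did. Build, miRBase release, permitted mismatches and the treatment of reads that near-identical members share: not given in the sources used here, so single members are less certain than the family. Depth was read from the smallest step of each column. Groups came from the labels. Entries that reached 1 TPM in 3 or more of the 6 libraries were tested on log2(TPM + 1) by limma 3.58.1 (R 4.3.3) with a mean-variance trend, two-sided, with Benjamini-Hochberg adjustment and calls at 0.05. Fold values are ratios of mean TPM. Arm ratios were tested by limma without trend, and pairs of members by exact permutation. Named were all members, all tested entries of the related lists and, for each member averaging 10 TPM or more, the 3 known miRNAs of most similar pattern. Members, lists and tests were chosen with earlier results of these data known. The test was checked on simulated data with as many rises as falls. That check does not cover a shift of the median like the one seen here. The alternatives were 2 pseudocounts, 2 filters, known miRNAs only, 5 scalings, 2 limma settings, a replicate block and leaving out each library; scaling and leave-one-out fits kept the same 433 entries. Python 3.11.15 drew the figures. Mature sequences were not used here. One planned list is not reported here.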

Additional observations from a re-analysis of the deposited data

Results flagged for a closer look

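Listed markers that missed the filter on level were searched for a rise across 1 TPM. The rule was under 1 TPM in every control library and at least 1 TPM in at least 1 AA2P library. It gave 3 blood miRNAs, and the opposite direction was not searched. miR-223 reached 5.40 TPM in AA2P replicate 1. miR-142-5p reached 2.08 TPM in the same library and stood at 0.72 and 0.74 TPM in the other AA2P libraries, against 0.34 to 0.56 TPM in controls. miR-451 reached 1.11 TPM in AA2P replicate 3. Its values were 0.82, 0.31 and 1.11 TPM with AA2P and 0.31, 0.81 and 0.63 TPM in controls, and the groups overlapped.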

How the results depend on the processing

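Of the members, miR-454 kept direction and call in all 19 alternatives run, with log2 fold changes of 0.48 to 0.84, and miR-301 stayed uncalled and higher in its 18. The count of 107 calls (86 higher, 21 lower) became 57 with no filter, 63 with the replicate block and 62 to 98 when 1 library was left out. It was 97 (46 higher, 51 lower) with trimmed-mean scaling, 99 (48 and 51) with median-of-ratios scaling, 82 (39 and 43) with totals without miR-21-5p, 91 (55 and 36) with totals without the 10 most abundant entries and 84 (44 and 40) with quantile normalization. In that order of scalings the log2 fold change of miR-130a, no longer called, was 0.15, 0.17, 0.16, 0.26 and 0.17, and the gain of the family sum was 54.5, 57.8, 57.7, 72.6 and 73.8 TPM. Under the first 3 scalings that of miR-130b-5p was -0.044, -0.022 and -0.027, and that of miR-130b-3p was -0.099, -0.077 and -0.082, with -0.11 under quantile normalization.

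miR-130a was also not called with no filter (0.45; more entries were tested) or with the replicate block (0.45; limma, adjusted p = 0.0983), and leaving out 1 library gave 0.36 to 0.52. Leaving out 1 library gave -0.19 to 0.27 for the arm difference of miR-130b and 0 to 3 called hairpins.

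Listed relatives whose sign turned were not called under those settings. Under the first 3 of these scalings the log2 fold changes were -0.053, -0.031 and -0.036 for miR-19b, -0.036, -0.015 and -0.019 for miR-148a-3p, -0.041, -0.018 and -0.024 for miR-27b-3p and -0.082, -0.059 and -0.065 for miR-128. miR-148b-3p turned under the first alone (-0.0070). Under quantile normalization the values were -0.045 for miR-148a-3p, -0.083 for miR-27b-3p and -0.023 for miR-128. Beyond the shift of the median, the cause was not tested.

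Libraries sharing a replicate number deviated together with correlations of 0.288, 0.0625 and 0.177, not all over 0.1, and 5 of 6 correlated best with their own number. The replicate block changed the call of no member but miR-130a. A per-entry permutation test cannot go below p = 0.1, so it gave no calls. For miR-301, at 92 to 192 reads, counting error adds to the spread.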

Other observations

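The arms of miR-130b did not follow each other across the AA2P libraries. In AA2P replicate 2 the 5p arm had its highest level of the 6 libraries (356 TPM, about 12792 reads) while the 3p arm, at 19.7 TPM (about 707 reads), was within the range of the controls. In AA2P replicate 1 the 3p arm had its highest level (28.6 TPM) and the 5p arm, at 269 TPM, was within the range of the controls. These places hold for the deposited TPM. Under trimmed-mean scaling the 3p arm was highest in control replicate 3, at 25.6 TPM beside 24.8 TPM in AA2P replicate 1. With that scaling, the 5p arm of AA2P replicate 1 (233 TPM) and the 3p arm of AA2P replicate 2 (17.2 TPM) lay below every control.

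In the deposited TPM, miR-130a, miR-301 and miR-130b-3p each had their highest level in AA2P replicate 1, and miR-130b-5p had its highest in AA2P replicate 2. miR-454 stood at 209 and 210.5 TPM in AA2P replicates 1 and 2, a difference within counting error. Under quantile normalization it stood at 200 and 197 TPM in these libraries.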
